A study of Mus musculus with 21 samples.

Results

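Cend1, Slitrk5, Fam189a2, Igfbpl1, Tmem182 and Alx4, genes little studied in the heart, were followed in mouse embryonic hearts with and without the chromatin remodeller CHD4. They are 6 of 24509 genes in the RNA tables and were chosen by their large falls in null against flox hearts in these libraries, with no cutoff given. Every value of null against flox hearts at E9.5 and E10.5 is therefore a description, with no test. Null hearts were cardiac tissue of CD1 embryos with both floxed Chd4 alleles recombined (Chd4 Δflox/Δflox), and flox hearts carried both alleles unrecombined (Chd4 flox/flox). At embryonic day (E) 9.5 there were 5 null and 5 flox libraries from 200 ng of RNA, and at E10.5 there were 3 null and 3 flox libraries from 300 ng, each described as a biological replicate. CHD4 binding was mapped in wild-type CD1 hearts at E10.0 in 3 peak lists that come from 2 biological samples. The recombinase, the cells it acts in and the number of hearts in a library are not given in the sources used here.

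Libraries held 17.0 to 20.1 M reads in null hearts and 19.6 to 23.5 M in flox hearts at E9.5, and 17.3 to 18.9 M over both groups at E10.5. Chd4 averaged 45.7 ± 3.08 RPKM in null hearts and 92.5 ± 1.33 RPKM in flox hearts at E9.5 (SD, n = 5 each), and 52.7 ± 4.61 RPKM in null hearts and 77.6 ± 12.3 RPKM in flox hearts at E10.5 (SD, n = 3 each). RPKM counts reads per kilobase of a gene, scaled to 1000000 reads in all.

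CHD4 is the ATPase of the NuRD complex, which couples nucleosome remodelling to histone deacetylation and is known in the heart for keeping genes of other muscle types silent. The 6 genes share no pathway. Cend1 encodes a membrane protein best known for cell cycle exit of neuronal precursors, and Slitrk5 a transmembrane protein with leucine-rich repeats that acts at synapses and binds the neurotrophin receptor TrkB. Fam189a2 encodes a membrane protein that, in human cells, binds the ubiquitin ligase ITCH and epsin and acts in endocytosis of the chemokine receptor CXCR4. Tmem182 encodes a muscle membrane protein that restrains myoblast fusion through integrin beta 1. Igfbpl1 encodes a secreted protein related to the insulin-like growth factor (IGF) binding proteins, and Alx4 a paired-type homeodomain factor of limb and craniofacial mesenchyme.

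Promoter windows of 4 of the 6 genes were read from RefSeq (GRCm38.p6), each from 250 bases before to 50 bases after the annotated start. They are shown because the CHD4 peaks described further on lie over some of them and not over others. The Cend1 window is chr7:141429513-141429812 on the minus strand, the Slitrk5 window chr14:111675777-111676076 on the plus strand, the Fam189a2 window chr19:24030970-24031269 on the minus strand and the Tmem182 window chr1:40805351-40805650 on the plus strand. They are written 5′ to 3′, and capitals mark matches to the short motifs named after the sequences.
Cend1: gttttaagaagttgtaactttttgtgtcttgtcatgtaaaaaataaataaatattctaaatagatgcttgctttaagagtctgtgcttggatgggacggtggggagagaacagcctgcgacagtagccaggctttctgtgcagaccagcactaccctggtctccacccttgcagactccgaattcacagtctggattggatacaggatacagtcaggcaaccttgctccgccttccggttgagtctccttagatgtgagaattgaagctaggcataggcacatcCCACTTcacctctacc
Slitrk5: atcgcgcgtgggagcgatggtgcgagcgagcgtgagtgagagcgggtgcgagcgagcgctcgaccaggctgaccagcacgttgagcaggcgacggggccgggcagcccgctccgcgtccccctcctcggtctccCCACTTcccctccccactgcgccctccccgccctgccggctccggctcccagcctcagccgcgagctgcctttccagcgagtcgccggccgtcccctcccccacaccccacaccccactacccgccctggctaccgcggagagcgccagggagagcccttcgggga
Fam189a2: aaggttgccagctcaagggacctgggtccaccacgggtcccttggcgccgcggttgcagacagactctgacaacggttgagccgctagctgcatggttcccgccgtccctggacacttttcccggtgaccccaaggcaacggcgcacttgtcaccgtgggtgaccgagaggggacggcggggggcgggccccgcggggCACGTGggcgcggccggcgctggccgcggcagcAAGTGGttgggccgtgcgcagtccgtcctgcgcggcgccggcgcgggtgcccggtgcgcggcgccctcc
Tmem182: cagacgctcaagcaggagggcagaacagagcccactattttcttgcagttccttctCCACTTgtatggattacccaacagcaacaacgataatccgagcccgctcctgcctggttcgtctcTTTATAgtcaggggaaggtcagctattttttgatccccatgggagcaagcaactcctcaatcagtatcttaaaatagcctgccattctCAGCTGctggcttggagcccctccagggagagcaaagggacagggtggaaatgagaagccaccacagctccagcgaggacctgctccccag
The motifs searched on both strands were AAGTGG for NKX2-5, AGATAA for the GATA factors, GGTGTGA for T-box factors, the E-box CAGCTG, the E-box with core CACGTG, the core promoter box TATAAA, the MEF2 site and the CArG box, chosen with the sequences in view. AAGTGG, read on the other strand in 3 of the windows as printed, occurs in all 4 windows, and in 16.9% of the 32851 RefSeq windows of the same length. CACGTG occurs in the Fam189a2 window (7.15% of all windows), and CAGCTG (16.3%) and TATAAA (13.6%) occur in the Tmem182 window. There TATAAA is read on the other strand and printed as TTTATA. The 4 windows differ in base composition, with 46.3% G and C for Cend1, 74.3% for Slitrk5, 73.7% for Fam189a2 and 53.0% for Tmem182, against a median of 52.7% over all windows. The Slitrk5 and Fam189a2 windows hold 35 and 38 CpG dinucleotides, and the Cend1 and Tmem182 windows hold 5 and 6. A match says only that the letters are present.

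Cend1 (chromosome 7, 141426446 to 141429562, GRCm38.p6, the assembly of mm10) was low in every null heart. The E9.5 values were 3.10, 2.09, 2.17, 2.59 and 2.25 RPKM in null hearts, against 10.4, 11.0, 9.41, 12.1 and 9.93 RPKM in flox hearts. The E10.5 values were 1.71, 1.92 and 1.83 RPKM in null hearts, against 8.80, 5.97 and 8.61 RPKM in flox hearts. The groups did not overlap at either stage, and the null libraries of E10.5 lay closest together. The null mean was 23.1% of the flox mean at E9.5 and 23.3% at E10.5. On the scale of log2(RPKM + 0.5), on which all fitted differences are given, null minus flox was -1.92 (SE 0.102) at E9.5 and -1.82 (SE 0.192) at E10.5.

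Slitrk5 (chromosome 14, 111675115 to 111683144) was low in null hearts of both stages, with 1 library lower than the rest at E9.5. There it had 1.81, 1.92, 2.11, 0.601 and 1.54 RPKM in null hearts, against 5.86, 8.13, 4.35, 5.18 and 5.23 RPKM in flox hearts. In hearts of E10.5 it had 1.21, 1.16 and 0.914 RPKM in null hearts, against 9.29, 6.65 and 5.03 RPKM in flox hearts. No null library reached the level of a flox library of its stage. The null mean was 27.7% of the flox mean at E9.5 and 15.7% at E10.5, and null minus flox was -1.61 (SE 0.231) and -2.20 (SE 0.236) on the log2 scale.

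Fam189a2 (chromosome 19, 23972750 to 24031436) had the highest level per kilobase of the 6 genes in flox hearts of E9.5. Its E9.5 values were 6.82, 5.76, 6.07, 5.12 and 6.16 RPKM in null hearts, against 23.2, 19.3, 22.7, 26.1 and 21.3 RPKM in flox hearts. Its E10.5 values were 5.29, 3.84 and 4.18 RPKM in null hearts, against 14.2, 8.89 and 11.9 RPKM in flox hearts. The groups did not overlap, and the null mean was 26.6% of the flox mean at E9.5 and 38.0% at E10.5. Null minus flox was -1.83 (SE 0.0898) and -1.29 (SE 0.208) on the log2 scale.

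Tmem182 (chromosome 1, 40805573 to 40856887) was read few times in every library. At E9.5 it had 1.49, 1.18, 0.960, 0.392 and 0.599 RPKM in null hearts, against 3.12, 3.12, 2.71, 1.81 and 2.246 RPKM in flox hearts. At E10.5 it had 0.661, 0.970 and 0.151 RPKM in null hearts, against 3.46, 3.00 and 3.59 RPKM in flox hearts. These null values of E10.5 rest on 13, 20 and 3 reads, and the flox values on 68, 59 and 68 reads. The groups did not overlap at either stage, with null means of 35.6% and 17.7% of the flox means at E9.5 and E10.5. Null minus flox was -1.16 (SE 0.218) and -1.89 (SE 0.305) on the log2 scale, which understates changes of genes near 0.5 RPKM.

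Igfbpl1 (chromosome 4, 45809507 to 45826827) stayed abundant in flox hearts of both stages. It stood at 5.74, 5.43, 7.10, 4.24 and 5.70 RPKM in null hearts of E9.5, against 19.1, 21.6, 16.05, 14.2 and 19.5 RPKM in flox hearts. It stood at 3.18, 3.34 and 4.70 RPKM in null hearts of E10.5, against 17.9, 12.0 and 18.7 RPKM in flox hearts. Every null library lay below every flox library of its stage, and the null mean was 31.2% of the flox mean at E9.5 and 23.1% at E10.5. Null minus flox was -1.60 (SE 0.135) and -1.97 (SE 0.220) on the log2 scale.

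Alx4 (chromosome 2, 93642434 to 93681341) did not share the pattern at E9.5, where its values go against its place among genes that fall. It had 0.195, 0.214, 0.355, 0.185 and 0.454 RPKM in null hearts of E9.5, against 0.188, 0.352, 0.392, 0.834 and 0.324 RPKM in flox hearts, and the groups overlapped. These values stand on 18 to 47 reads in null libraries and 21 to 88 reads in flox libraries, and the mean was below the 0.5 RPKM needed to enter the fit. At E10.5 it had 0.320, 0.387 and 0.465 RPKM in null hearts, against 4.99, 4.17 and 1.69 RPKM in flox hearts. Those groups did not overlap, and the flox libraries differed widely among themselves. The null mean was 10.8% of the flox mean at E10.5, and null minus flox was -2.11 (SE 0.341) on the log2 scale.

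**Figure D1:**
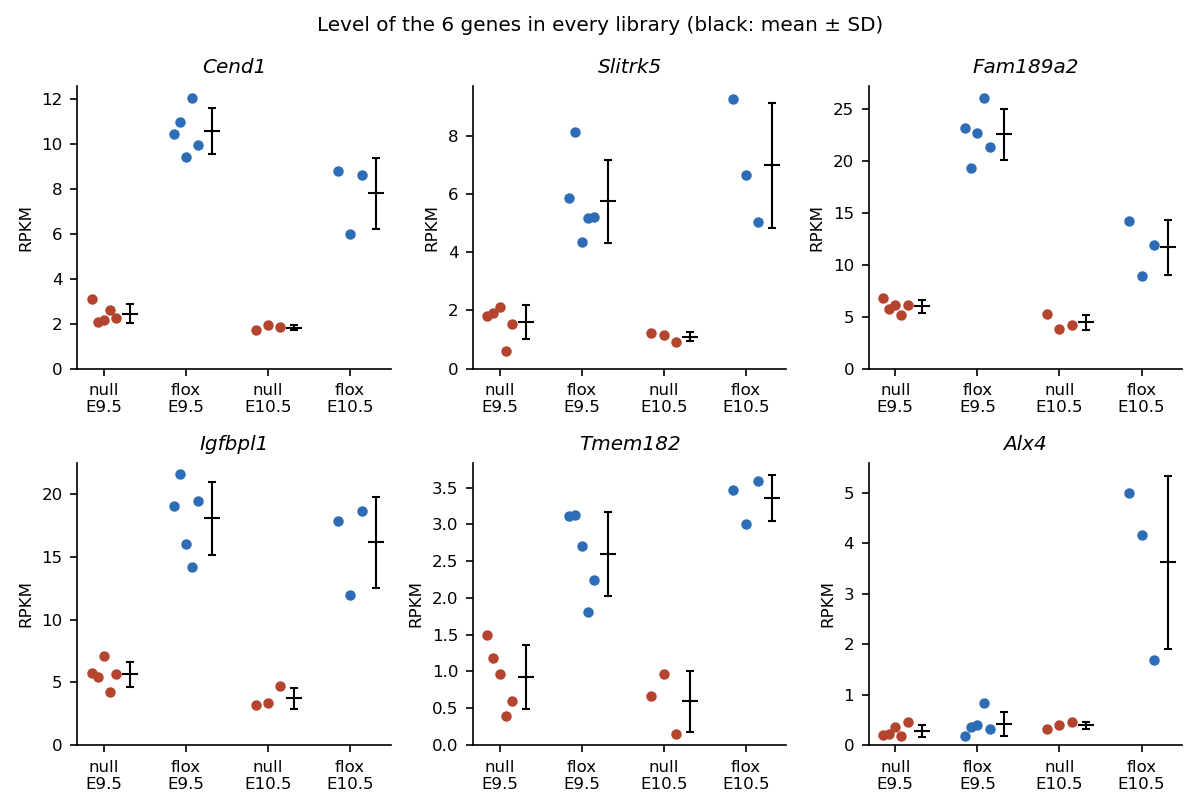
RPKM of each gene (vertical axis, linear from 0) in null and flox hearts of E9.5 and E10.5. Points are libraries, black bars the mean ± SD of 5 libraries a group at E9.5 and 3 at E10.5; the groups overlap at E9.5 for Alx4 alone.

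Of the set, 5 of 6 genes at E9.5 and 6 of 6 at E10.5 had every null library below every flox library. Over all genes tested this held for 8.57% at E9.5 and 17.4% at E10.5. Since these contrasts chose the genes, nothing is read from the counts. In the authors' deposited tables, whose log2 ratios run the other way as control over null, 5 of the 6 genes are listed at E9.5 with ratios of 0.99 to 1.92. All 6 are listed at E10.5, with ratios of 1.203 to 2.40, and Alx4 has the largest. In flox hearts of E9.5 the order of levels per kilobase was Fam189a2 (22.5 ± 2.49 RPKM), Igfbpl1 (18.1 ± 2.94), Cend1 (10.6 ± 1.02), Slitrk5 (5.75 ± 1.44), Tmem182 (2.60 ± 0.571) and Alx4 (0.418 ± 0.245). Of these neighbours Fam189a2 and Igfbpl1 overlapped in their libraries. In flox hearts of E10.5 the order was Igfbpl1 (16.2 ± 3.64 RPKM), Fam189a2 (11.7 ± 2.67), Cend1 (7.79 ± 1.58), Slitrk5 (6.99 ± 2.15), Alx4 (3.62 ± 1.72) and Tmem182 (3.35 ± 0.310), and all neighbours overlapped except Slitrk5 and Alx4, and Fam189a2 and Cend1.

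**Figure D2:**
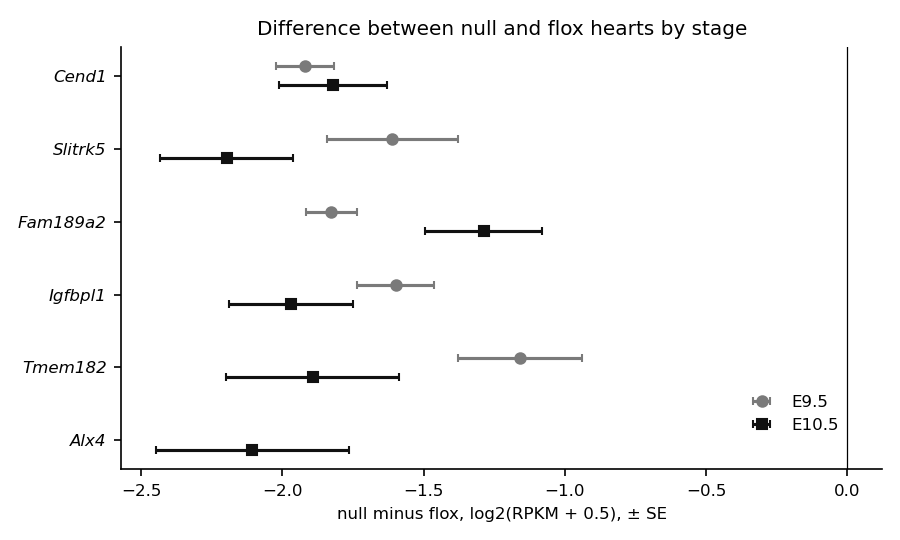
Null minus flox on the scale of log2(RPKM + 0.5) (horizontal axis) for each gene, with grey circles for E9.5 and black squares for E10.5. Bars are standard errors; Alx4 has no E9.5 value because its mean was below 0.5 RPKM, and the values shown run from -2.20 to -1.16.

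The rule did not use the change between stages, although the same libraries entered the contrasts that chose the genes. A high flox or a low null value at a stage favoured the choice, so the p-values between stages are not free of it. Stage cannot be told apart from the amount of RNA in a library or from the separately written tables. In flox hearts Alx4 stood at 3.62 ± 1.72 RPKM at E10.5 (SD, n = 3) against 0.418 ± 0.245 RPKM at E9.5 (SD, n = 5), a log2 difference of 2.10 (SE 0.310), and the stages did not overlap. High flox values at E10.5 are part of what chose Alx4, and it passed the filter through that stage alone, so this is a description with no test. Fam189a2 fell, at 11.7 ± 2.67 RPKM at E10.5 against 22.5 ± 2.49 RPKM at E9.5 (log2 difference -0.94, SE 0.143, limma adjusted p = 0.000768). Cend1 also fell, at 7.79 ± 1.58 RPKM at E10.5 against 10.6 ± 1.02 RPKM at E9.5 (-0.43, SE 0.130, limma adjusted p = 0.0211). For both genes every E10.5 flox library lay below every E9.5 flox library. The fall of Cend1 missed the threshold without flox 2 of E10.5 (log2 difference -0.26, limma adjusted p = 0.0660). The other 3 genes overlapped between stages and did not pass: the 95% interval of the log2 difference was -0.54 to 0.21 for Igfbpl1, -0.23 to 0.73 for Slitrk5 and -0.03 to 0.69 for Tmem182 (limma adjusted p = 0.431, 0.349 and 0.110). The 2 calls of Fam189a2 and Cend1, both lower, stand against a background of 51.0% of 13669 genes called between stages in flox hearts, 28.6% higher and 22.4% lower. Of all genes 27.6% had every E10.5 flox library above every E9.5 one, and 20.9% below.

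In null hearts 0 of the 5 genes tested passed between stages, against 8.76% of 13990 genes called. The log2 differences of E10.5 minus E9.5 were -0.33 for Cend1, -0.34 for Slitrk5, -0.40 for Fam189a2, -0.54 for Igfbpl1 and -0.40 for Tmem182 (limma adjusted p = 0.169, 0.439, 0.0910, 0.0815 and 0.449). Unadjusted, 3 of the 5 had a p under 0.05, a count with no share of all genes at that cutoff to set beside it. Low null values helped to choose these genes, so nothing is read from that count. The 95% interval ran from -0.71 to -0.10 for Fam189a2 and from -0.93 to -0.14 for Igfbpl1. Igfbpl1 passed when null 4 of E9.5 was left out (-0.63, limma adjusted p = 0.0447). Alx4 was below the filter in null hearts, at 0.391 ± 0.0724 RPKM at E10.5 and 0.281 ± 0.119 RPKM at E9.5 (SD, n = 3 and 5).

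Some libraries stood out over several of the genes. Among null hearts of E9.5, null 4 had the lowest level of 5 of the 6 genes. That library also had the highest summed level of erythroid genes of the stage, 75010 RPKM, in a range of 27760 to 75010 RPKM in null hearts and 10960 to 27970 RPKM in flox hearts over 8 of 8 erythroid markers. At E10.5 the erythroid sum ran from 46390 to 141700 RPKM in null hearts and from 24200 to 67910 RPKM in flox hearts. With the mean erythroid level in the fit at E9.5, null minus flox was -1.73 (SE 0.178) for Cend1, -1.71 (SE 0.163) for Fam189a2, -1.18 (SE 0.197) for Igfbpl1, -0.75 (SE 0.283) for Slitrk5 and -0.65 (SE 0.360) for Tmem182. All 5 values came out closer to 0 than without that term. The erythroid sums of null and flox hearts barely overlapped at E9.5, so the term cannot be told apart from the group. In bulk hearts fewer cells of a type and less RNA per cell cannot be told apart.

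All 10 cardiomyocyte markers were expressed, with a summed level of 13530 to 17430 RPKM in null hearts and 17310 to 20790 RPKM in flox hearts at E9.5. At E10.5 that sum was 11650 to 16040 RPKM in null hearts and 8010 to 14700 RPKM in flox hearts. Since Cend1 and Slitrk5 are best known from neurons, 16 neuron markers were summed as well. They came to 41.7 to 54.6 RPKM in null hearts and 39.5 to 48.0 RPKM in flox hearts at E9.5, and to 42.85 to 54.65 RPKM in null hearts and 39.15 to 48.3 RPKM in flox hearts at E10.5. Gap43 (27.7 ± 4.95 RPKM in null hearts and 25.6 ± 2.58 RPKM in flox hearts) and Tubb3 (10.1 ± 3.71 RPKM in null hearts and 8.29 ± 3.44 RPKM in flox hearts) made up most of the sum at E9.5. Markers of mature neurons were lower, with Rbfox3 at 0.0875 ± 0.0430 RPKM in null hearts and 0.210 ± 0.167 RPKM in flox hearts of E9.5, and Syn1 at 0.365 ± 0.158 RPKM in null hearts and 0.200 ± 0.0166 RPKM in flox hearts (SD, n = 5 each). Of the 16 neuron markers, 1 was lower and 3 were higher in null hearts of E9.5 with no overlap, as were 2 and 3 at E10.5. Of all genes tested, 8.57% were lower and 5.5% higher without overlap at E9.5, and 17.4% and 13.9% at E10.5. The marker counts include Elavl3 and Syn1, which averaged below the filter of 0.5 RPKM at E9.5. The part of such cells in the values of Cend1 and Slitrk5 was not tested. With no overlap between groups, Prph and Elavl3 were higher in null hearts of both stages, at 1.45 ± 0.303 RPKM in null hearts and 0.132 ± 0.0542 RPKM in flox hearts for Prph at E9.5. Nefl was lower in null hearts of both stages, at 1.68 ± 0.319 RPKM in null hearts and 3.41 ± 0.606 RPKM in flox hearts at E9.5, and Syp was lower at E10.5, at 0.440 ± 0.0876 RPKM in null hearts and 0.939 ± 0.0743 RPKM in flox hearts (SD, n = 3 each).

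The relatives of the 6 genes, meaning family members, partners and pathway genes in 6 lists, came to 97 genes in the tables. At E9.5, 66 were tested and 10 passed, 3 higher and 7 lower (15.2%, against 17.2% of all 13643 genes, of which 6.87% were higher and 10.3% lower). At E10.5, 78 were tested and 4 passed, 3 higher and 1 lower (5.13%, against 2.07% of all 14100 genes, of which 1.77% were higher and 0.305% lower). The median log2 difference of the relatives was 0.02 at E9.5 and -0.14 at E10.5, beside -0.04 for all genes at each stage. With the erythroid level in the fit none of the 10 passed at E9.5, where 70 of all genes did (limma), and Igfbp2 alone passed at E10.5. With the epicardial level in the fit 6 passed at E9.5 and 0 at E10.5, where 2 of all genes passed (limma). The log2 differences of the 4 genes that lost their calls at E10.5 were then 2.50 for Igfbp2, 1.57 for Htra1, 1.45 for Cdkn1a and -1.87 for Slitrk6, none closer to 0 than without the term. On the log2 scale the epicardial level of E10.5 ran from 4.54 to 4.62 in null and 4.23 to 4.49 in flox libraries. The erythroid sums of the groups barely overlapped at E9.5. Such a term shares much of its spread with the group, so a lost call is not read as a dependence on those cells. The summed level of 8 epicardial markers was 311 to 353 RPKM in null hearts and 218 to 257 RPKM in flox hearts at E10.5. Krt19 made most of that gap, at 121 ± 48.1 RPKM in null hearts and 23.6 ± 5.82 RPKM in flox hearts (SD, n = 3 each). It was the only marker of the 8 higher in null hearts without overlap, and 3 of the 8 had lower means there. The sum of 7 foregut and liver markers at E10.5 was 24.4 to 1368 RPKM in null hearts and 2.81 to 178 RPKM in flox hearts. The part of blood and of these tissues in the calls was not tested further.

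Of the IGF system, 1 gene passed at both stages, in the direction opposite to Igfbpl1. Igfbp2, which encodes a secreted protein that binds IGFs, had 110, 173, 174, 205 and 151 RPKM in null hearts of E9.5, against 34.7, 40.1, 40.1, 83.7 and 41.0 RPKM in flox hearts. At E10.5 it had 224, 130 and 146 RPKM in null hearts, against 32.3, 32.4 and 48.9 RPKM in flox hearts. The groups did not overlap at either stage. Igfbp2 rose by 1.80 on the log2 scale at E9.5 (SE 0.231, limma adjusted p = 0.000693) and by 2.11 at E10.5 (SE 0.249, limma adjusted p = 0.00739). The E9.5 difference was 2.02 without flox 4, and 1.55 with the erythroid level in the fit (limma adjusted p = 0.212). Htra1, a secreted serine protease, rose at E10.5, at 8.86 ± 2.00 RPKM in null hearts and 3.55 ± 0.483 RPKM in flox hearts (SD, n = 3 each; log2 difference 1.19, limma adjusted p = 0.0265). That call of Htra1 ended without null 3 or any 1 flox library (adjusted p 0.0571 to 0.117). The list had 1 of 14 genes called at E9.5 and 2 of 16 at E10.5, with medians of 0.16 and 0.27. The ligand gene Igf2 averaged 1520 ± 113 RPKM in null hearts and 1553 ± 149 RPKM in flox hearts at E9.5, and Igfbp5 averaged 341 ± 58.7 RPKM in null hearts and 414 ± 46.6 RPKM in flox hearts; neither passed at either stage.

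**Figure D3:**
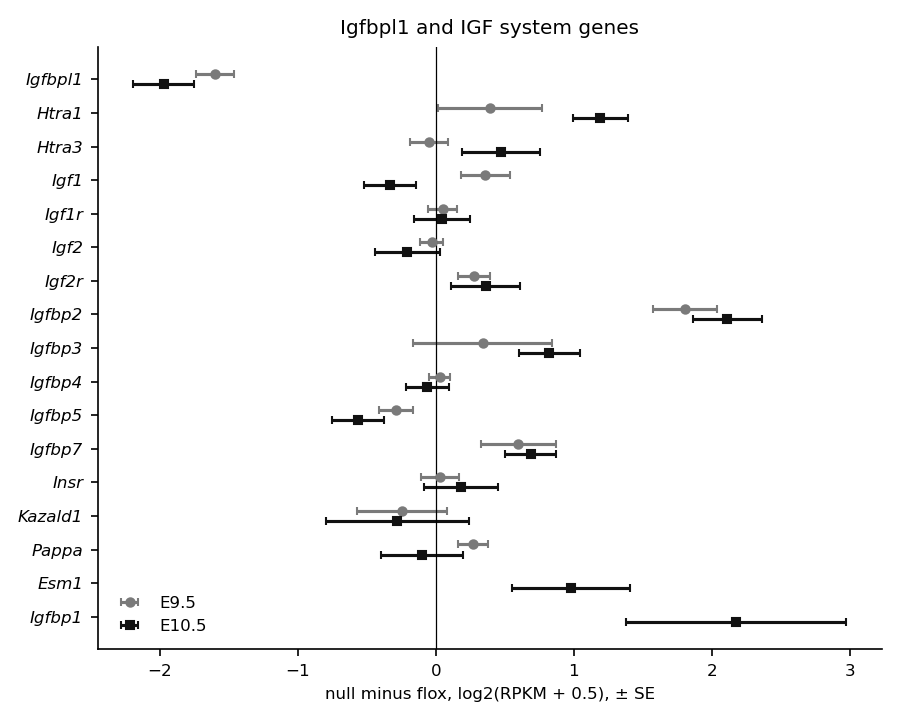
Null minus flox on the scale of log2(RPKM + 0.5) (horizontal axis) for Igfbpl1 and the tested genes of the IGF list, with grey circles for E9.5, black squares for E10.5 and bars for standard errors. Igfbpl1 lies at -1.60 and -1.97 and Igfbp2 at 1.80 and 2.11; Igfbp1 and Esm1 entered the fit at E10.5 alone.

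The Slitrk and neurotrophin receptor list had 0 of 6 tested genes called at E9.5 (limma; 1 at an unadjusted p under 0.05, and 0 with voom) and 1 of 11 at E10.5. That gene was Slitrk6, a paralog of Slitrk5, with 0.196, 0.137 and 0 RPKM in null hearts, against 1.90, 1.83 and 0.898 RPKM in flox hearts of E10.5. The groups did not overlap, and the log2 difference was -1.71 (SE 0.293), or -4.70 with voom on the recovered reads. Slitrk6 reached the filter of 0.5 RPKM through its flox libraries alone, so its call had to come with a difference and no p is given. Slitrk4 averaged 1.22 ± 0.393 RPKM in null hearts and 1.90 ± 0.566 RPKM in flox hearts at E10.5 and did not pass. The receptor phosphatase genes Ptprf and Ptprs had log2 differences of 0.04 and 0.00 at E9.5 and did not pass. Ptprd, of the same list, was 0.36 higher in null hearts of E9.5 on the log2 scale (limma adjusted p = 0.0907) and did not pass either.

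Among 15 Cend1 partners and cell cycle exit genes, 1 rose and 4 fell at E9.5, and 1 rose at E10.5. Cdkn1a, the p21 inhibitor of cyclin-dependent kinases, rose at E10.5, with 34.7, 16.6 and 20.52 RPKM in null hearts, against 8.86, 6.56 and 9.74 RPKM in flox hearts (log2 difference 1.41, SE 0.272, limma adjusted p = 0.0414). At E9.5 its difference was 0.69 (limma adjusted p = 0.0486), with overlapping groups. Cdkn1c, which encodes the p57 inhibitor, fell at E9.5, at 520 ± 92.7 RPKM in null hearts and 716 ± 48.7 RPKM in flox hearts (SD, n = 5 each; log2 difference -0.48, limma adjusted p = 0.0179). Cdk4 (-0.28), Ccnd2 (-0.31) and Dyrk1b (-0.44), a kinase reported in a complex with Cend1 and Ranbp9, were the other falls at E9.5 (limma adjusted p = 0.0231, 0.0276 and 0.0453). Ranbp9 averaged 20.5 ± 1.17 RPKM in null hearts and 21.1 ± 0.718 RPKM in flox hearts at E9.5 and did not pass. The call of Cdkn1a ended without any 1 of null 2 to null 5, flox 1, flox 2, flox 3 or flox 5 at E9.5 (adjusted p 0.0622 to 0.110), and without any 1 library other than null 1 at E10.5 (adjusted p 0.0542 to 0.142). The call of Dyrk1b ended without any 1 library other than null 2 or null 4 (adjusted p 0.0543 to 0.103), that of Cdk4 without null 5, flox 1 or flox 3 (0.0555 to 0.0584), and that of Ccnd2 without null 5, flox 1, flox 2 or flox 5 (0.0557 to 0.0677).

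In the list around Fam189a2, 1 of 11 genes passed at E9.5 and 0 of 11 at E10.5 (limma; 2 at an unadjusted p under 0.05, and 0 with voom). Nedd4l, a ubiquitin ligase related to ITCH, fell to 4.29 ± 0.293 RPKM in null hearts of E9.5, against 5.68 ± 0.322 RPKM in flox hearts (SD, n = 5 each; log2 difference -0.37, limma adjusted p = 0.00450), with no overlap. The paralog Fam189b averaged 4.38 ± 0.644 RPKM in null hearts and 4.79 ± 0.526 RPKM in flox hearts at E9.5 and did not pass. Itch itself averaged 16.6 ± 1.27 RPKM in null hearts and 14.99 ± 0.956 RPKM in flox hearts and did not pass either. In the list around Tmem182, 1 of 6 genes passed at E9.5 and 0 of 7 at E10.5 (limma; 2 at an unadjusted p under 0.05, and 0 with voom). The gene was Emp2, which encodes an epithelial membrane protein, at 14.1 ± 0.754 RPKM in null hearts and 18.7 ± 1.90 RPKM in flox hearts (log2 difference -0.39, limma adjusted p = 0.00462). Itgb1, the integrin that TMEM182 binds, averaged 207 ± 11.4 RPKM in null hearts and 194 ± 10.4 RPKM in flox hearts at E9.5 and did not pass.

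The homeobox list around Alx4 had 2 of 14 genes called at E9.5, 1 higher and 1 lower in null hearts. At E10.5 it had 0 of 18 called (limma, with 5 at an unadjusted p under 0.05, all 5 lower in null hearts, and 0 with voom). Its median log2 difference at E10.5 was -0.54, the lowest of the 6 lists, beside -0.04 for all genes. Prrx2, a paired-related homeobox gene, fell to 37.3 ± 11.8 RPKM in null hearts of E9.5, against 55.5 ± 8.14 RPKM in flox hearts (-0.61, limma adjusted p = 0.0435). That call ended without any 1 of null 2 to null 5, flox 1, flox 2, flox 3 or flox 5 (adjusted p 0.0601 to 0.103).

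At E10.5 other genes of the list had lower means in null hearts without passing. Those named next were picked from their values. Prrx1 had 6.82, 2.89 and 1.63 RPKM in null hearts, against 4.58, 13.8 and 10.1 RPKM in flox hearts (log2 difference -1.29, SE 0.494, limma adjusted p = 0.177). Alx1 had 4.08, 1.45 and 0.883 RPKM in null hearts, against 4.78, 5.18 and 3.11 RPKM in flox hearts (-1.04, SE 0.414, limma adjusted p = 0.190). Both genes overlapped between groups, and null 1 was the highest null library for each.

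**Figure D4:**
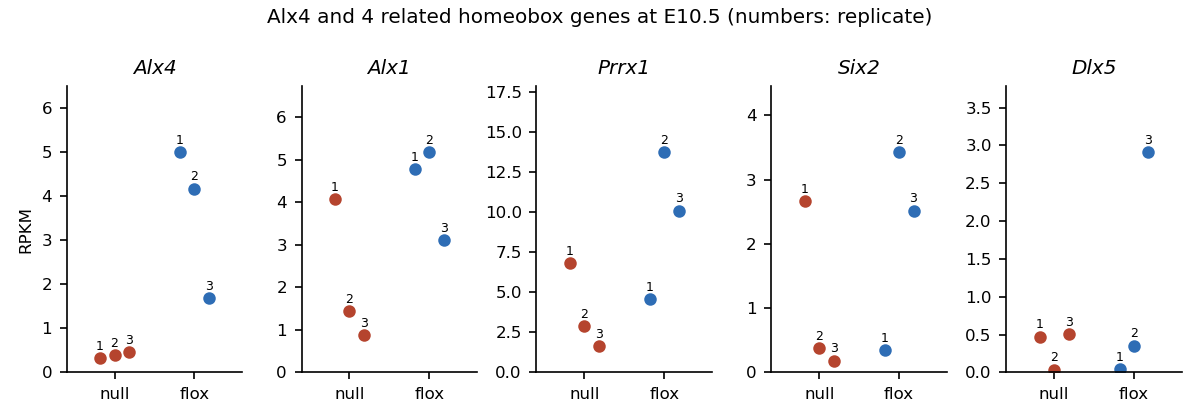
RPKM at E10.5 (vertical axis, linear from 0) of Alx4 and 4 homeobox genes in 3 null and 3 flox libraries, with the replicate number beside each point. Alx4 shows no overlap (0.320 to 0.465 RPKM in null hearts, 1.69 to 4.99 RPKM in flox hearts), and the 4 others overlap between the groups.

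CHD4 peaks lay near most but not all of the genes. Within 5 kb of an annotated gene end, lists 1, 2 and 3 held a peak for 4, 5 and 4 of the 6 genes, beside 89.0%, 82.6% and 75.7% of 13838 genes tested. Peaks shared by all 3 lists (at least 1 bp of overlap) were found there for 3 of 6, beside 65.0% of genes. The shares were below those of all genes except in list 2, and the lists come from 84271, 60749 and 50232 peaks.

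Cend1 and Slitrk5 each had a peak at the same place in all 3 lists. At Cend1 the peaks of lists 1, 2 and 3 were 116, 308 and 404 bp wide and lay over the start of the gene and overlapped the printed window. Their scores, whole numbers whose scale is not stated, were at percentiles 56.5, 53.8 and 23.1 of their lists. At Slitrk5 the shared peak lay just outside the lower end of the gene, 102, 235 and 205 bp from it, and outside the printed window. Of the 4 printed windows, lists 1, 2 and 3 had a peak over 2, 1 and 1. Beside this, 72.9%, 61.9% and 50.8% of 10600 genes had a peak over any of their windows. Those shares are of genes, some of which may have several windows, and not of single windows. The starts used for the Slitrk5 and Fam189a2 windows, at 111676027 and 24031019, lie inside those genes. Their annotated ends on that side are at 111675115 and 24031436, so a peak at such an end can miss the window.

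Fam189a2 and Igfbpl1 had their shared peaks inside the gene. At Fam189a2 a peak 13.8 kb from the lower end was shared, at score percentile 92.8 in list 1, and list 1 alone had a peak over the printed window. List 2 had a peak just outside that window, at 24031273 to 24031380 and 56 bp from the upper gene end. It lay within the list 1 peak (24031173 to 24031539). Igfbpl1 held 8, 7 and 8 peaks in the gene with 5 kb on either side, over a covered length of 4805, 3055 and 2024 bp. At least as many peaks were found for 19.1%, 14.6% and 8.40% of genes, whose medians were 4, 3 and 2 peaks. The widest peak of list 1 there, 2125 bp, was at score percentile 95.7.

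Tmem182 had no peak in any of the 3 lists in the gene or within 5 kb of it, as 6.41% of genes did, and 4.13% of the 2592 genes that span a length like that of Tmem182 (from 0.67 to 1.5 times). The nearest peak to a gene end was 14802, 43055 and 8004 bp away. Alx4 had 1 and 2 peaks in lists 1 and 2 and none in list 3. Binding was measured in wild-type hearts of another day.

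**Figure D5:**
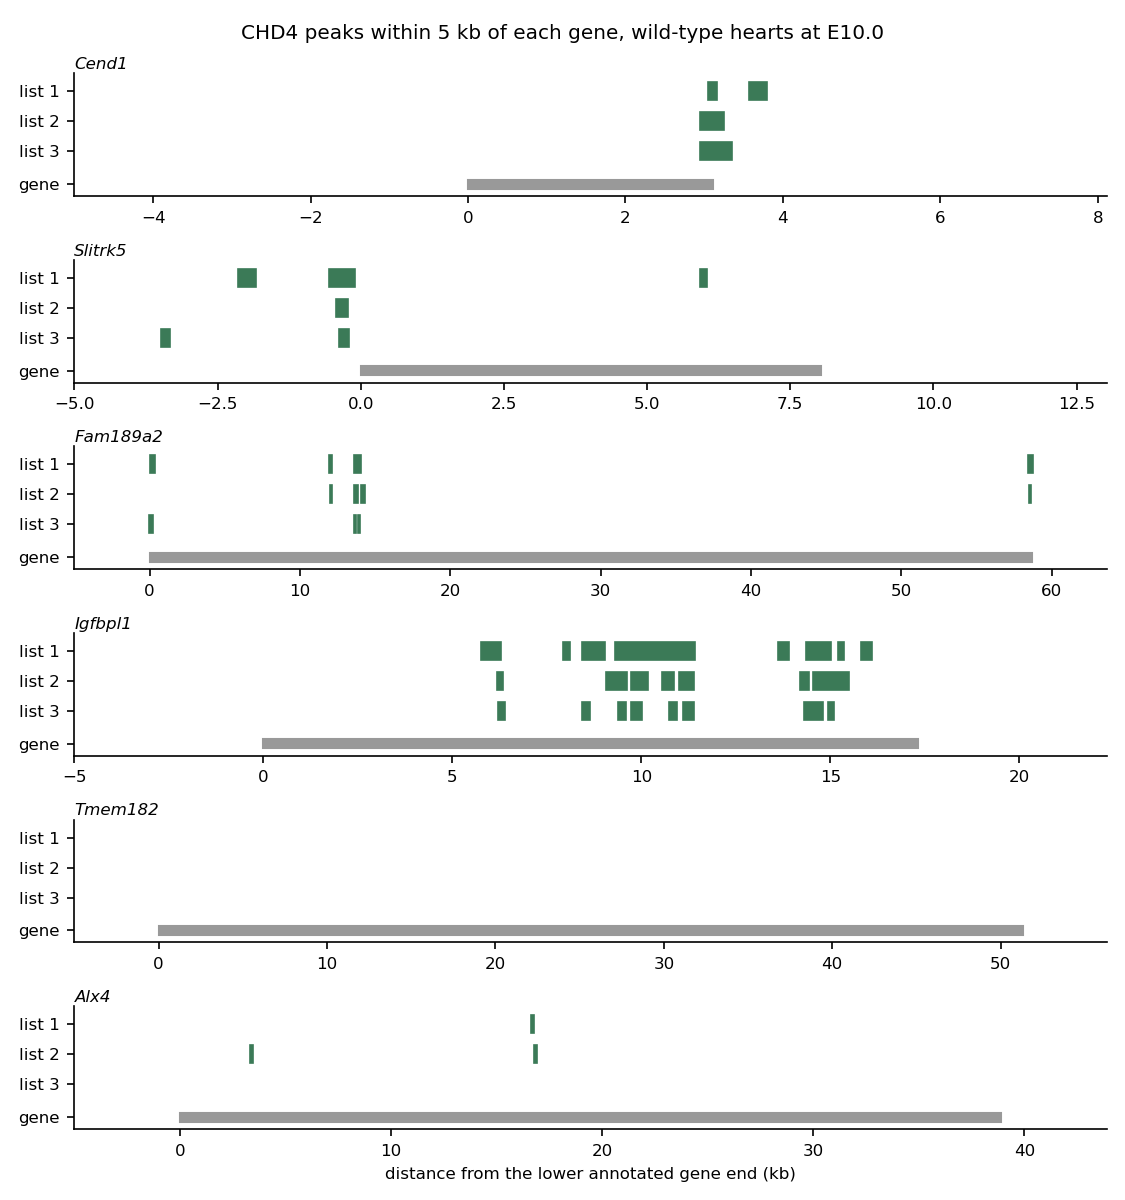
CHD4 peaks of the 3 lists (green, to scale) within 5 kb of each gene (grey), against distance in kb from the lower annotated gene end. Cend1 and Fam189a2 are transcribed from the upper end; Igfbpl1 holds 8, 7 and 8 peaks and Tmem182 none.

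Genes of like pattern were sought over the 16 libraries among 11375 genes, by the root-mean-square difference of log2 levels after the flox mean of each stage was subtracted. A smaller value means a closer pattern. Genes low in flox hearts at either stage were left out of the 11375. The measure follows mainly the null falls for which the 6 genes were chosen, so closeness among them is a description that the choice favours. The closest gene to Cend1 was Fam189a2 (0.289), and the next was Igfbpl1 (0.314). Igfbpl1 was also the closest to Slitrk5 (0.321), and Mov10l1, best known as a germline RNA helicase, the closest to Igfbpl1 (0.275). Tagln3 (0.352 from Cend1) and Gja5, which encodes connexin 40 (0.318 from Igfbpl1 and 0.370 from Slitrk5), also ranked among the closest 3, and Asb12 did so for Fam189a2 (0.392). For Tmem182 the closest was Fbxo40, a muscle F-box gene (0.394). Alx4 was itself outside that set, at 0.418 RPKM in flox hearts of E9.5, and genes as low as it were not compared. The closest genes in the set were Eif5a2 at 0.513, Hrasls at 0.540 and Tmem132c at 0.557. Whether genes outside the set lie closer was not tested.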

How the data were processed

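The RNA values of 16 heart libraries are RPKM as the authors deposited them, scaled by gene length and by the size of the library in units of 1000000 reads. Columns headed WT and KO were matched to flox and null by stage and replicate number. The tools named, per the submitters' processing notes, were MACS2, DESeq2 1.6.3, HTSeq 0.6.2, bedtools 2.25.0, SAMtools 1.6 and Bowtie 1.2.0, with mm10 as genome build, with settings not given in the sources used here. Libraries were made from polyadenylated RNA with a kit that keeps strand, per the labels. Whether reads were counted by strand is not stated, so a gene and one antisense to it cannot be separated. Log2 ratios (control over null) and p-values in the authors' deposited tables are from DESeq2, per the file headers, and only genes up to an adjusted 0.05 are listed. The mean signal and the test score of those deposited tables were not used. Each peak of the deposited lists has a score, a whole number of unstated scale, and the lists are per library. The 2 input libraries were not analysed here.

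The RPKM values turned into whole reads (tolerance 0.01) in 100% of cases, which gives the depth; read numbers cover counting error only. Every contrast was fitted on its own libraries with limma 3.58.1 in R 4.3.3 (lmFit, then eBayes with a trend, two-sided) to log2(RPKM + 0.5), after leaving out genes that averaged below 0.5 RPKM. Calls are at 0.05 after Benjamini-Hochberg adjustment over all genes tested. Where replicates are only described as biological, p-values measure the spread between libraries. On simulated data the fit found 91% of 2-fold changes at E9.5, 73% at E10.5, 86% between stages in flox hearts and 83% in null hearts. Of its calls on the simulated data 3.05%, 9.42%, 7% and 6.67% were false. Simulated counts were drawn independently with the same spread for every gene, without differences in tissue make-up, and changes were put only into genes averaging at least 2 RPKM. These rates therefore hold for the simulation and not for the real contrasts. No 2 libraries of a group were duplicates, since a chi-square over genes was at least 10.2 per degree of freedom at E9.5 and 17.1 at E10.5. Gene ends came from RefSeq (GRCm38.p6) without strand, so peaks within 5 kb of either end were counted, for the 96.6% of 14325 genes with coordinates. Python 3.11.15, numpy 2.4.6, pandas 2.3.3 and matplotlib 3.10.9 were used.

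The 6 genes and all lists were chosen with earlier results of these data known. Named beside the 6 genes were relatives called at a stage, up to 3 more of the highest level in a list, and the 3 genes closest in pattern to each of the 6. Fam189b, Ranbp9, Slitrk4, Prrx1, Alx1, the neuron genes and the homeobox genes plotted beside Alx4 were picked from their values. Some genes of the homeobox list are not reported here.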

Additional observations from a re-analysis of the deposited data

Results flagged for a closer look

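In 38 groups of 5 libraries at E9.5, over the 6 genes, Chd4 and the relatives that passed, 2 libraries stood far from the others of their group by Dixon's test, which flags about 1 in 20 groups by chance. Igfbp2 was at 83.7 RPKM in flox 4 of E9.5, against 34.7 to 41.0 RPKM in the other flox libraries. Htra1 was at 7.66 RPKM in null 2 of E9.5, against 1.63 to 3.27 RPKM in the other null libraries. None of the 6 genes had such a library.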

How the results depend on the processing

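Null minus flox was below 0 under every alternative run for the 5 genes fitted at E9.5 (Alx4 was below the filter) and the 6 at E10.5, ranging on the log2 scale from -2.11 to -0.65 at the earlier stage and from -3.07 to -1.10 at the later. Leaving out 1 library in turn gave -1.995 to -1.87 for Cend1, -1.71 to -1.40 for Slitrk5, -1.88 to -1.77 for Fam189a2, -1.68 to -1.51 for Igfbpl1 and -1.29 to -1.01 for Tmem182 at E9.5. At E10.5 it gave -1.99 to -1.73 for Cend1, -2.40 to -1.98 for Slitrk5, -1.46 to -1.14 for Fam189a2, -2.16 to -1.86 for Igfbpl1, -2.15 to -1.56 for Tmem182 and -2.51 to -1.85 for Alx4. With the erythroid level in the fit the E9.5 values were -1.73 for Cend1, -0.75 for Slitrk5, -1.18 for Igfbpl1 and -0.65 for Tmem182. With the epicardial level the E10.5 values were -2.22 for Cend1, -2.69 for Slitrk5, -1.68 for Fam189a2, -2.41 for Igfbpl1 and -2.68 for Alx4. A pseudocount of 0.1 RPKM gave -2.53 for Slitrk5, -2.55 for Tmem182 and -2.80 for Alx4 at E10.5. Voom on the recovered reads, chosen after seeing the data, gave -2.11 for Cend1 and -1.59 for Tmem182 at E9.5, and -2.07 for Cend1, -2.64 for Slitrk5, -2.78 for Tmem182 and -3.07 for Alx4 at E10.5; the planned voom with TMM factors was not run. Genes called at E9.5 numbered 2342, or 70 with the erythroid level, 3698 with the replicate block and 1537 to 2773 without 1 library, and after median scaling 1117 were higher and 1046 lower, against 937 and 1405 as reported. Genes called at E10.5 numbered 292, or 162 with no filter, 88 with the erythroid and 2 with the epicardial term and 62 to 356 without 1 library. The count between stages in null hearts was 1225, or 150 with the replicate block and 220 to 1525 without 1 library; in flox hearts it was 5958 to 6737 without 1 library. Relatives called at E9.5 numbered 10, or 22 with the replicate block, 0 with the erythroid and 6 with the epicardial term, and 5 to 16 without 1 library; at E10.5 they numbered 4, or 1 with the erythroid term, 0 with the epicardial one and 1 to 6 without 1 library. With no filter the calls of Cdkn1a, Dyrk1b and Prrx2 at E9.5 and of Cdkn1a and Htra1 at E10.5 also ended, as did those of Dyrk1b and Prrx2 with median scaling (limma adjusted p = 0.0669 and 0.0534) and of Htra1 at E10.5 with the replicate block (limma adjusted p = 0.05). Between stages in flox hearts Cend1 was -0.39 with the replicate block (limma adjusted p = 0.0945). Leaving out 1 library gave -0.52 to -0.26 for Cend1, 0.04 to 0.45 for Slitrk5, -1.09 to -0.76 for Fam189a2, -0.28 to 0.03 for Igfbpl1, 0.23 to 0.40 for Tmem182 and 1.84 to 2.50 for Alx4 in flox hearts. In null hearts it gave -0.38 to -0.26 for Cend1, -0.55 to -0.24 for Slitrk5, -0.52 to -0.31 for Fam189a2, -0.69 to -0.44 for Igfbpl1 and -0.65 to -0.07 for Tmem182. The causes were not tested. The erythroid term at E9.5 and the epicardial term at E10.5 largely separate null from flox libraries, so calls lost with them are not read as a dependence on those cells. Replicate numbers pair no samples by any label; same-numbered null and flox libraries correlated between -0.14 and 0.52 at E9.5 and between -0.03 and 0.11 at E10.5, and 3 of 5 and 1 of 3 correlated best with their own number. Peaks lay near 3 of 6 genes in list 2 within 1 kb, and near 3 in list 2 and 2 in list 3 among the higher-scored peaks. They lay near 2 genes where a list 1 peak had to share a set part of its own length with a peak of lists 2 and 3 each. Tmem182 and Alx4 are near the lower limit of detection at this depth.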
